A study of Mus musculus with 5 samples.

Results

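The genes of the TGF-beta and BMP pathway were examined in kidney cortical tissue of *Fnip1* null and wildtype mice. Members were taken by gene symbol alone: the TGF-beta, BMP, GDF and activin or inhibin beta ligands, their receptors, the Smad proteins, the Smurf ubiquitin ligases, the latent TGF-beta binding proteins and a set of named antagonists and pathway genes. This gave 65 of the 24421 genes counted. RNAseq counts were available for 3 *Fnip1* null mice (genotype Fnip1-/-, mice 8637, 9210 and 9121) and 2 wildtype mice (Fnip1+/+, mice 9055 and 9056), 1 library per mouse, all of the C57BL6J strain and with no treatment. The counts of the mouse labelled 9210 were deposited under that number with its middle digits swapped, and the label was used. The mice were 11 to 18 weeks of age. Fnip1 is a protein that binds Folliculin, the product of the gene mutated in Birt-Hogg-Dube' syndrome, and the energy sensor AMPK. The null allele came from chemical mutagenesis with ENU and is carried in the germline, so it was not limited to a kidney cell type. The labels give the control mice as Fnip1+/+, whereas some passages of the study give them as heterozygous. The comparison asked whether expression of the pathway genes differed between the genotypes.

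TGF-beta, BMP, GDF and activin ligands are secreted dimers that bring type I and type II receptor kinases together on the cell surface. The type I receptor then phosphorylates a receptor-regulated Smad protein, Smad2 and Smad3 in the TGF-beta and activin branch and Smad1, Smad5 and Smad9 in the BMP branch, and these enter the nucleus with the common partner Smad4. In the kidney, TGF-beta is best known for driving matrix production and fibrosis, whereas Bmp7 is needed for nephron formation and is made by podocytes and tubules in the adult.

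Counts on genes ran from 15799114 to 19132145 per mouse, and 3 counts in a mouse equalled 0.158 to 0.186 normalized CPM (counts scaled by the TMM method to a common library size). Values of single mice are given throughout in the order 8637, 9210 and 9121 for the null group and 9055 and 9056 for the wildtype group. *Fnip1* itself measured 21.0, 16.9 and 16.0 normalized CPM in the null mice against 51.7 and 48.6 in wildtype, a log2 fold change of -1.48 (edgeR's quasi-likelihood test, adjusted p = 0.0313). *Lrp2*, the megalin gene of the proximal tubule, was abundant in every mouse, at 1379 to 2550 normalized CPM. This did not hold for each such marker: *Slc7a13* measured 4.17 in mouse 9121 against 202 to 1376 in the others. *Fnip1* null mouse 9121 differed from the other 4 mice in having *Xist* at 314 normalized CPM and *Ddx3y*, *Kdm5d* and *Uty* at 0 counts. The other 4 mice, both wildtype mice among them, had *Ddx3y* at 42.8 to 52.1 normalized CPM. Sex was not given in the labels. By these genes it was uneven between the genotypes as well as within the null group. A difference of sex cannot be told apart from the spread between null mice, and its part in the genotype differences was not tested. Mouse 8637 lay closest to the wildtype mice, with a correlation of log2 CPM of 0.987 with mouse 9055 against 0.974 for mouse 9210 and 0.964 for mouse 9121.

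Genes with under 10 counts in 3 or more mice were left out, and 50 of the 65 members were among the 13874 genes that remained. In *Fnip1* null kidney tissue, the quasi-likelihood test called no member differentially expressed (FDR 5%, 2-fold or more), against 0.533% of all genes tested. With the FDR alone there were again 0 members, against 0.735% of all genes. The lowest adjusted p among the members was 0.0633, and 21 members had an unadjusted p below 0.05, 18 of them higher and 3 lower in null tissue, where 13.9% and 11.2% of all genes were. By edgeR's exact test, the type I BMP receptor *Bmpr1b*, the antagonists *Fstl3* and *Grem1* and the matrix gene *Tgfbi* passed the same thresholds as upregulated, 4 of 50 members where 3.03% of all genes did. *Grem1* passed the filter on low counts only through the null mice, where it was higher, so without it the count is 3. With the same test 0 members passed them as downregulated, where 1.04% did. The likelihood ratio test called the same 4 members (4.53% of all genes called), and DESeq2 called *Bmpr1b*, *Fstl3* and *Tgfbi* (3.51% of all genes called) and gave no adjusted p for *Grem1*. In bulk tissue such as this, a change in the number of cells of a type and a change in the RNA per cell cannot be told apart.

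Log2 fold changes were positive in 38 of the 50 members tested and negative in 12, with a median of 0.32 against 0.00312 for all genes tested. All 3 null mice lay above both wildtype mice in 20 members and below both in 5, where 22.9% and 23% of all genes did so. The 5 lower members were *Acvr1*, *Tgfbr2*, *Smad2*, *Smurf2* and *Chrd*. The filter on low counts is not even-handed here: a gene with counts in only the 3 null mice passes it and a gene with counts in only the 2 wildtype mice does not. With no filter, 60 members were tested, their median was 0.35 and the quasi-likelihood test called *Bmpr1b* and *Fstl3*, 2 members, against 0.812% of all genes. Scaling by library size alone moved the median of all genes to 0.166 and that of the members to 0.485. The plot of fold changes by role shows 49 of the 50 members tested.

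**Figure D1:**
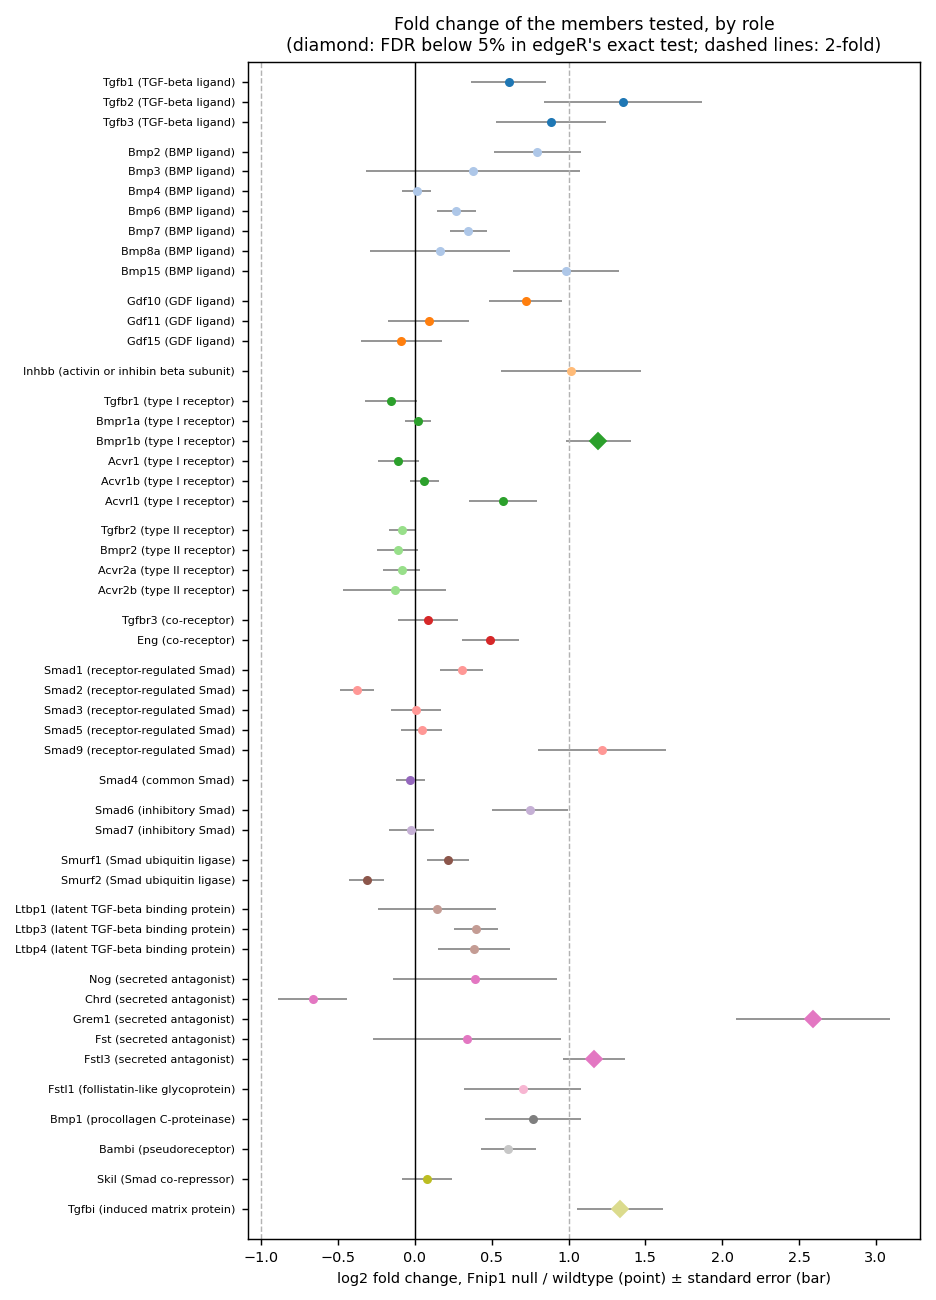
Log2 fold change of 49 of the 50 members tested, *Fnip1* null over wildtype, with its standard error from edgeR's quasi-likelihood test, grouped and coloured by role. Diamonds mark *Bmpr1b*, *Grem1*, *Fstl3* and *Tgfbi*, the 4 members past an FDR of 5% in the exact test, and the dashed lines mark a 2-fold difference.

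The 4 members called by the exact test come from different steps of the pathway. Bmpr1b is a type I receptor for BMP and GDF ligands, Fstl3 is a secreted follistatin-like protein that binds activin, Grem1 is a secreted protein that binds BMP ligands, and Tgfbi is an extracellular matrix protein named for its induction by TGF-beta. Their upstream sequences are shown because these are the members this test called, as the 187 bases from 250 to 64 before the RefSeq start (GRCm38.p6, strand of the gene, 5′ to 3′), a stretch with no annotated exon. Capitals mark the short Smad-binding element, CAGAC or its reverse complement GTCTG, and the GC-rich motif GGCGCC linked to the BMP Smads, which is its own reverse complement and can share 1 base with a CAGAC next to it.
*Bmpr1b*, chr3:141982328-141982514, minus strand, at the most upstream of 3 RefSeq starts, inside the longer gene model given below: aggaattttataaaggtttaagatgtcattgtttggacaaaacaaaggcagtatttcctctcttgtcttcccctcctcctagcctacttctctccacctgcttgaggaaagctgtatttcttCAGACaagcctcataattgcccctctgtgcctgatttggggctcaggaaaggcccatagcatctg
*Fstl3*, chr10:79777024-79777210, plus strand: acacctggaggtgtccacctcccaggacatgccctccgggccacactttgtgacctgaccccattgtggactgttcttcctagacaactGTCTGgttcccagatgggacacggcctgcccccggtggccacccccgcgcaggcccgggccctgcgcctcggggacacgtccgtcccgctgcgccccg
*Grem1*, chr2:113758712-113758898, minus strand: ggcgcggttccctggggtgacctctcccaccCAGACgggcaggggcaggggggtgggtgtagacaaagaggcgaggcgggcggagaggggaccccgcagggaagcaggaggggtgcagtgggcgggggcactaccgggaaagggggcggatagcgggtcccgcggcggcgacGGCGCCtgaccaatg
*Tgfbi*, chr13:56609336-56609522, plus strand: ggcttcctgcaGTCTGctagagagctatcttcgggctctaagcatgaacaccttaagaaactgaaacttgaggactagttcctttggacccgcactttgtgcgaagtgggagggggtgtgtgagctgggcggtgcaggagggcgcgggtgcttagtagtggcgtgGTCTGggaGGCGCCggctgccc
The windows of *Bmpr1b*, *Fstl3* and *Grem1* held 1 CAGAC each and that of *Tgfbi* held 2, and *Grem1* and *Tgfbi* held 1 GGCGCC each. Among 32851 windows of the same length and position, 34.2% held CAGAC in either direction and 6.49% held GGCGCC, so the first is common among such windows. A match of letters is no evidence of binding.

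*Bmpr1b* (ENSMUSG00000052430, chromosome 3 from 141837136 to 142169425, minus strand) measured 17.3, 27.0 and 20.4 normalized CPM in the null mice against 9.93 and 8.92 in wildtype. Every null mouse was above both wildtype mice by more than the wildtype mice differed. The means were 21.6 ± 4.93 (SD, n = 3) and 9.43 ± 0.719 (SD, n = 2), a log2 fold change of 1.19 (SE, its standard error, 0.213) with an adjusted p of 0.0658 in the quasi-likelihood test and 0.000193 in the exact test. Without mouse 8637 it passed the quasi-likelihood threshold, at a log2 fold change of 1.33 and an adjusted p of 0.00989.

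*Fstl3* (ENSMUSG00000020325, chromosome 10 from 79777272 to 79782630, plus strand) measured 7.07, 6.95 and 8.81 normalized CPM in the null mice against 3.48 and 3.32 in wildtype. The 3 null mice were close to each other, as were the wildtype mice, and the groups were far apart. Its log2 fold change of 1.16 (SE 0.202) had the lowest adjusted p of any member in the quasi-likelihood test, 0.0633, and 0.000591 in the exact test. Of its exon bases, 59.2% overlap *Prss57* on the opposite strand, and strand use in counting was not stated, so reads of these genes may not be told apart. *Prss57* itself had between 0 and 2 counts per mouse.

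*Grem1* (ENSMUSG00000074934, chromosome 2 from 113746164 to 113758646, minus strand) was at the edge of detection, with 16, 19 and 14 counts in the null mice against 3 and 2 counts in wildtype. In normalized CPM these were 0.942, 1.13 and 0.739 against 0.186 and 0.114, so the wildtype values lay at or below the level of 3 counts. The ratio of the summed counts was 6.24, with a 95% exact counting interval from 2.50 to 20.1 that does not include the spread between mice. The fitted log2 fold change was 2.59 (SE 0.502), with an adjusted p of 0.0709 in the quasi-likelihood test and 0.00241 in the exact test.

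*Tgfbi* (ENSMUSG00000035493, chromosome 13 from 56609523 to 56639562, plus strand) measured 20.1, 33.0 and 32.1 normalized CPM in the null mice against 13.5 and 9.03 in wildtype. Mouse 8637 lay between the wildtype mice and the other null mice. The log2 fold change was 1.33 (SE 0.280), with an adjusted p of 0.0774 in the quasi-likelihood test and 0.000818 in the exact test. In the quasi-likelihood test without mouse 8637 it was 1.54 (adjusted p = 0.00914), where 6.49% of all genes passed both thresholds. Without mouse 9121 or 9210 it was 1.24 and 1.21, with adjusted p-values of 0.0811 and 0.265 in that test. *Bmpr1b*, *Fstl3*, *Grem1* and *Tgfbi* were each called by the exact test with any 1 of the 3 null mice left out. These genes had been picked by the same test on the same mice, so the refits are no independent check of them. Of all genes, 8.69%, 1.85% and 3.33% were called without mouse 8637, 9210 and 9121. The share that stayed called among genes called with all mice was not computed.

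The secreted ligands tended to be higher in null tissue. Of 27 ligand genes, 14 were tested and 13 of them had a positive log2 fold change, with a median of 0.49 over the 14. Every null mouse was above both wildtype mice in 9 of them, where 22.9% of all genes were. No ligand passed an FDR of 5% with either the quasi-likelihood or the exact test, so none is called upregulated here. By quasi-likelihood 7 had an unadjusted p below 0.05, all higher in null tissue, where 13.9% of all genes were. The 3 TGF-beta ligands, all above both wildtype mice in every null mouse, had adjusted p-values between 0.176 and 0.193.

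*Tgfb1*, the main TGF-beta ligand in kidney injury, measured 13.1, 13.6 and 18.7 normalized CPM in the null mice against 12 and 7.89 in wildtype, a log2 fold change of 0.61 (SE 0.245). The gap between mouse 8637 and mouse 9055 was smaller than that between the wildtype mice. *Tgfb2*, a second isoform, measured 2.41, 4.81 and 8.07 in the null mice in the same order and 2.11 and 1.89 in the wildtype mice, a log2 fold change of 1.35 (SE 0.515). Its null values ran from just above the wildtype mice in 8637 to the highest in 9121. *Tgfb3*, the third isoform, measured 2.06, 4.16 and 3.22 against 1.80 and 1.6, a log2 fold change of 0.89 (SE 0.360). Without mouse 8637, *Tgfb2* and *Tgfb3* passed the quasi-likelihood threshold (log2 fold changes of 1.69 and 1.12, adjusted p = 0.0217 and 0.0452), where 6.49% of all genes did. Without mouse 9121 their log2 fold changes were 0.85 and 0.87, and without mouse 9210 they were 1.39 and 0.64. Neither gene passed in those settings.

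Of the 10 BMP ligands, 7 were tested, all with a positive log2 fold change, and 4 lay above both wildtype mice in every null mouse, where 22.9% of all genes did. *Bmp7* (chromosome 2 from 172868012 to 172940321, minus strand) measured 90.4, 81.8 and 70.7 normalized CPM in the null mice against 65.5 and 61.8 in wildtype, a log2 fold change of 0.35 (SE 0.122, adjusted p = 0.156). Unlike the TGF-beta ligands, it was highest in mouse 8637, as was *Bmp6*, the ligand that controls hepcidin in liver, at 62.2, 52.8 and 48.8 against 46.9 and 43.7 (log2 fold change 0.27). *Bmp4*, an early patterning ligand, was level at 29.9, 31.3 and 32.7 against 31.7 and 30.5, a log2 fold change of 0.01 (SE 0.0946). *Bmp2*, a bone-inducing ligand, measured 2.41, 3.62 and 3.27 against 1.74 and 1.83, a log2 fold change of 0.80 (SE 0.283, adjusted p = 0.159). In *Bmp3* the groups overlapped, at 0.824, 1.84 and 3.54 against 2.42 and 0.80, and its log2 fold change of 0.38 (SE 0.697) turned to -0.26 without mouse 9121. *Bmp15*, known from the oocyte, had 19 to 20 counts in the null mice and 8 and 11 in the wildtype mice. *Bmp8a* overlapped, with 12 to 27 counts in all mice, and it has a near-identical copy, *Bmp8b*, so reads may be lost between them.

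Among the GDF ligands, *Gdf10*, a BMP3-like ligand, measured 9.66, 12.8 and 11.7 normalized CPM in the null mice against 8.44 and 5.37 in wildtype, a log2 fold change of 0.72 (SE 0.239, adjusted p = 0.143). *Gdf15*, a stress-responsive ligand, overlapped, at 4.48, 4.93 and 5.22 against 6.52 and 3.89. *Gdf11*, a relative of myostatin, also overlapped, with a log2 fold change of 0.09. *Inhbb*, which encodes the beta B subunit shared by activin B and inhibin B, measured 2.77, 4.22 and 7.65 against 2.67 and 2.17, a log2 fold change of 1.02 (SE 0.457, adjusted p = 0.227). Like *Tgfb2*, *Inhbb* was lowest in mouse 8637, close to mouse 9055, and highest in mouse 9121, and its log2 fold change was 0.53 without 9121.

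**Figure D2:**
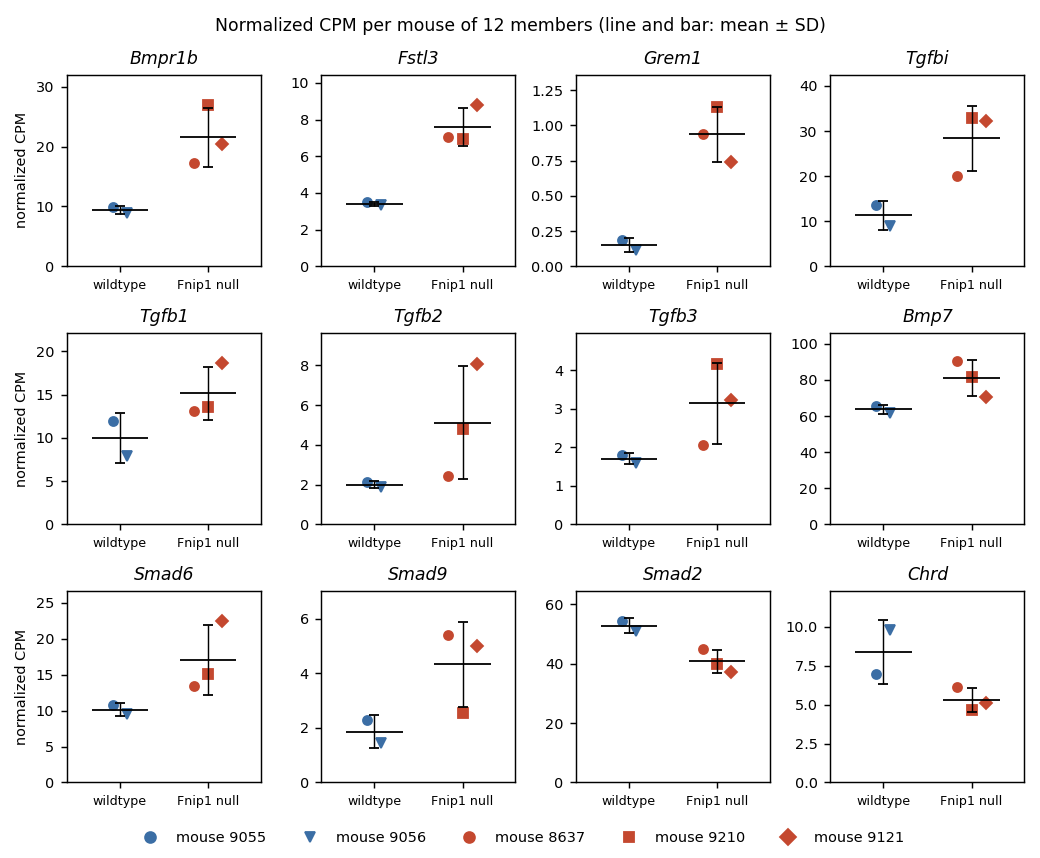
Normalized CPM of 12 members in each mouse, with the group mean and SD (wildtype n = 2, *Fnip1* null n = 3) and a separate vertical axis from 0 for each gene. In the upper and middle rows, and in *Smad6* and *Smad9*, every null mouse is above both wildtype mice, and in *Smad2* and *Chrd* every null mouse is below both.

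The receptors did not shift together. Of 13 receptor and co-receptor genes, 12 were tested, 6 higher and 6 lower in null tissue, and their median log2 fold change was -0.03. The 4 type II receptors were all slightly lower in null tissue, with log2 fold changes between -0.13 and -0.09, SEs between 0.0858 and 0.335 and adjusted p-values between 0.561 and 0.836, and all 4 turned positive when scaled by library size alone, by less than the shift of all genes. *Tgfbr2*, the receptor that binds TGF-beta itself, measured 117, 112 and 121 normalized CPM in the null mice against 126 and 122 in wildtype. *Bmpr2*, the main type II receptor for BMPs, overlapped at 94.5, 82.0 and 76.2 against 101 and 81.6, and so did *Acvr2b*, an activin receptor, at 6.24, 3.56 and 3.22 against 4.22 and 5.26. Among the type I receptors, *Bmpr1a* was level beside its paralog *Bmpr1b*, at 87.4, 93.0 and 89.6 against 91.8 and 85.8, a log2 fold change of 0.02 (SE 0.0844). *Tgfbr1*, the TGF-beta type I receptor, and *Acvr1b*, the main activin type I receptor, overlapped, with log2 fold changes of -0.16 and 0.06. *Acvr1*, a BMP type I receptor, measured 10.4, 9.68 and 10.7 against 11.1 and 11.1, a log2 fold change of -0.11 (SE 0.131). The differences in *Bmpr1b* were therefore seen beside a level *Bmpr1a*, and the difference between the paralogs was not tested.

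The endothelial receptor *Acvrl1*, which binds BMP9 and BMP10, and its co-receptor *Eng*, endoglin, were the other tested members of this class above both wildtype mice in every null mouse. *Acvrl1* measured 21.0, 28.6 and 28.0 normalized CPM in the null mice against 20.9 and 13.9 in wildtype, a log2 fold change of 0.57 (SE 0.221, adjusted p = 0.181). *Eng* measured 119, 135 and 161 against 114 and 82.4, a log2 fold change of 0.49 (SE 0.185, adjusted p = 0.176). In both genes mouse 8637 was close to mouse 9055 and the wildtype mice stood apart from each other. The 8 endothelial markers summed to between 478 and 615 normalized CPM in null and 271 and 455 in wildtype mice, with the same order of mice in the wildtype group. All 8 had a positive log2 fold change and 5 lay above both wildtype mice in every null mouse, where 22.9% of all genes did. The part of endothelial cells in *Acvrl1* and *Eng* was not tested. *Tgfbr3*, betaglycan, which presents TGF-beta to its receptors, overlapped, at 42.8, 50.3 and 62.3 against 55.9 and 41.9.

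Of the 8 Smad genes, log2 fold changes were positive in 5 and negative in 3, with a median of 0.03. *Smad2*, the TGF-beta and activin Smad on chromosome 18, was lower in null tissue, with 45.1, 40.0 and 37.1 normalized CPM in the null mice against 54.5 and 51.1 in wildtype. All null mice were below both wildtype mice, and the log2 fold change was -0.37 (SE 0.111, adjusted p = 0.120). Its partner *Smad3* was level at 40.2, 51.8 and 58.1 against 51.9 and 47.8, a log2 fold change of 0.01 (SE 0.162). *Smad4*, the common partner, was level too, with a log2 fold change of -0.03 (SE 0.0948).

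Among the BMP Smads, *Smad9*, the least abundant, measured 5.42, 2.55 and 5.01 normalized CPM in the null mice against 2.30 and 1.43 in wildtype, a log2 fold change of 1.22 (SE 0.416, adjusted p = 0.149). Mouse 9210 lay near the wildtype mice, and without it the log2 fold change was 1.49 and *Smad9* passed the exact test, where 1.85% of all genes did. With all mice, or without mouse 8637 or 9121, *Smad9* did not pass that test. *Smad1* had a log2 fold change of 0.30 and *Smad5* of 0.04. The inhibitory Smads also differed from each other. *Smad6*, which restrains mainly BMP signalling, measured 13.5, 15.1 and 22.5 against 10.8 and 9.49, a log2 fold change of 0.75 (SE 0.245, adjusted p = 0.140). *Smad7*, which restrains both branches, was level at 30.2, 25.2 and 34.5 against 31.0 and 29.9, a log2 fold change of -0.02 (SE 0.146). The Smurf ligases, which mark Smads and receptors for degradation, lay in opposite directions: *Smurf2* at 80.7, 68.4 and 65.9 against 87.5 and 90.8, below both wildtype mice in every null mouse (log2 fold change -0.31, SE 0.111, adjusted p = 0.157), and *Smurf1* with a log2 fold change of 0.22 and overlapping groups. Without mouse 8637, *Smad2*, *Smad6* and *Smurf2* passed the FDR alone by quasi-likelihood, at less than 2-fold, in a setting where 12 of the 50 members and 19.7% of all genes did. *Skil*, a nuclear co-repressor that binds the Smads, was level, with a log2 fold change of 0.08 (SE 0.161).

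Outside the cell, the antagonists did not all go the same way. Of 6 secreted antagonists, *Grem1* and *Fstl3* were the members called by the exact test, and *Chrd*, chordin, which holds BMP ligands away from their receptors, was the member lower in every null mouse. *Chrd* measured 6.12, 4.63 and 5.12 normalized CPM in the null mice against 6.95 and 9.83 in wildtype, a log2 fold change of -0.67 (SE 0.224, adjusted p = 0.145). The groups overlapped in *Nog*, noggin, and *Fst*, follistatin. *Bambi*, a pseudoreceptor that lacks the kinase domain, was alike in the 3 null mice, at 8.24, 8.08 and 8.55 against 6.08 and 4.80, a log2 fold change of 0.61 (SE 0.177, adjusted p = 0.118). It lies on chromosome 18, as do *Smad2*, *Smad4* and *Smad7*.

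Latent TGF-beta binding proteins tether the inactive ligand in the matrix. *Ltbp3* measured 34.6, 46.1 and 44.3 normalized CPM in the null mice against 32.2 and 31.0 in wildtype, a log2 fold change of 0.40 (SE 0.143, adjusted p = 0.163). *Ltbp4*, at 59.1, 80.0 and 68.9 against 66.6 and 39.9, and *Ltbp1*, at 11.4, 12.5 and 19.9 against 18.3 and 8.23, overlapped between the groups. A further pair of matrix-related members had a like pattern: *Bmp1*, a procollagen C-proteinase despite its name, at 10.2, 17.5 and 19.8 against 10.9 and 7.77 (log2 fold change 0.77, SE 0.312), and *Fstl1*, a secreted glycoprotein, at 32.6, 64.9 and 55.7 against 42.1 and 20.8 (0.70, SE 0.380). In both, mouse 8637 lay inside the wildtype range and the other null mice above it. *Bmp1* passed the quasi-likelihood threshold without mouse 8637 (adjusted p = 0.0222), where 6.49% of all genes did. It did not pass without mouse 9121 or 9210 (adjusted p = 0.321 and 0.418 in that test).

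Per length of exon, *Eng* had the highest level of all members in both genotypes, at 38.7 normalized CPM per kb in null and 27.5 in wildtype tissue. *Bmp7* followed, at 22.1 and 17.3. In null tissue *Smad4* (16.3), *Bmp6* (15.2), *Bmp4* (15.2), *Bmpr1a* (14.9) and *Tgfbr2* (14.3) came next, and among these 5 the ranges over the null mice of neighbours in this order overlapped. The ligand genes thus spanned from *Bmp7* down to *Bmp3* at 0.279 per kb in null tissue among those tested, and *Tgfb1*, at 6.96, was the highest TGF-beta ligand. *Bmpr1b* reached 3.70 per kb in null and 1.62 in wildtype tissue, below *Bmpr1a* in both. The lowest member tested was *Grem1*, at 0.226 and 0.0362. The plot of levels per length gives 49 of the 50 members tested.

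**Figure D3:**
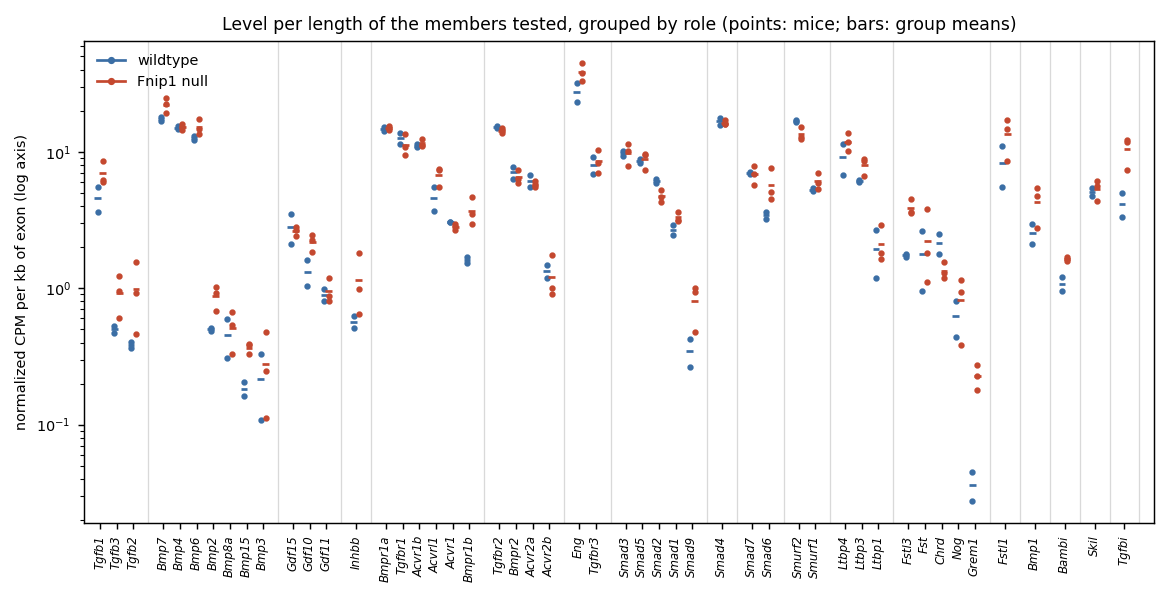
Normalized CPM per kb of exon of 49 of the 50 members tested, on a log axis, for each mouse (points) and group mean (bars), with vertical lines between roles. *Eng* is the highest in both genotypes and *Grem1* the lowest, and in *Bmpr1b*, *Fstl3*, *Grem1* and *Tgfbi* every null mouse is above both wildtype mice.

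The remaining 15 members had too few counts to be tested. *Bmp8b*, *Bmp10*, *Gdf1*, *Gdf2* and *Inhbc* had 0 counts in all 5 mice, which allows a level of up to 3 counts, 0.158 to 0.186 normalized CPM, by counting error alone. *Gdf1* shares 100% of its exon bases with *Cers1*, which also had 0 counts, so it could not have been counted separately. *Gdf3*, *Gdf6*, *Gdf7*, *Gdf9*, *Inhba* and *Inhbe* had between 0 and 6 counts in each mouse. *Gdf5*, a joint-forming ligand, had 8, 13 and 6 counts in the null mice against 5 and 1 in wildtype, with 40.3% of its exon bases on the opposite strand of another gene. *Bmp5* ran the other way, with 2, 1 and 5 counts in the null and 11 and 12 in the wildtype mice, and 49.1% of its exon bases lie opposite another gene.

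Among these untested members, *Acvr1c* and *Ltbp2* were seen mainly in null mice 9210 and 9121. *Acvr1c*, the type I receptor ALK7, known from adipocytes, had 4, 25 and 19 counts in the null mice and 0 in both wildtype mice, a mean at least 5.09-fold higher than the level of 3 counts per library. *Ltbp2*, an elastic fibre protein, had 4, 50 and 22 counts against 3 and 2. The ratio of its summed counts was 9.68, with a 95% exact counting interval from 3.97 to 30.7. That interval does not include the spread between mice, and mouse 8637, at 4 counts, lay close to the wildtype mice. The 6 adipocyte markers summed to 5.89, 219 and 78.0 normalized CPM in the null mice against 4.84 and 11 in wildtype, the same order of null mice as in both genes. Their part in *Acvr1c* and *Ltbp2* was not tested.

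The null mice were not alike in these genes. Of the 18 members with a log2 fold change above 0.5, mouse 8637 was the lowest null mouse in 12, or 66.7%, and the same held for 75.3% of the 2472 genes of that size among all genes. The median over the members tested, as the log2 ratio of each null mouse to the wildtype mean, was 0.14 in mouse 8637, 0.23 in mouse 9210 and 0.43 in mouse 9121. Of the 18, *Smad9* was the 1 member highest in mouse 8637, as were *Bmp6* and *Bmp7* among members with smaller differences. Without mouse 8637, the quasi-likelihood test called 8 members, *Bmp1*, *Bmpr1b*, *Fstl3*, *Grem1*, *Inhbb*, *Tgfb2*, *Tgfb3* and *Tgfbi*, against 6.49% of all genes. Without mouse 9121 it called 0 members, against 0.987% of all genes, and without mouse 9210 it called 0 members and 0 of all genes. The heatmap of the members shows each mouse.

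**Figure D4:**
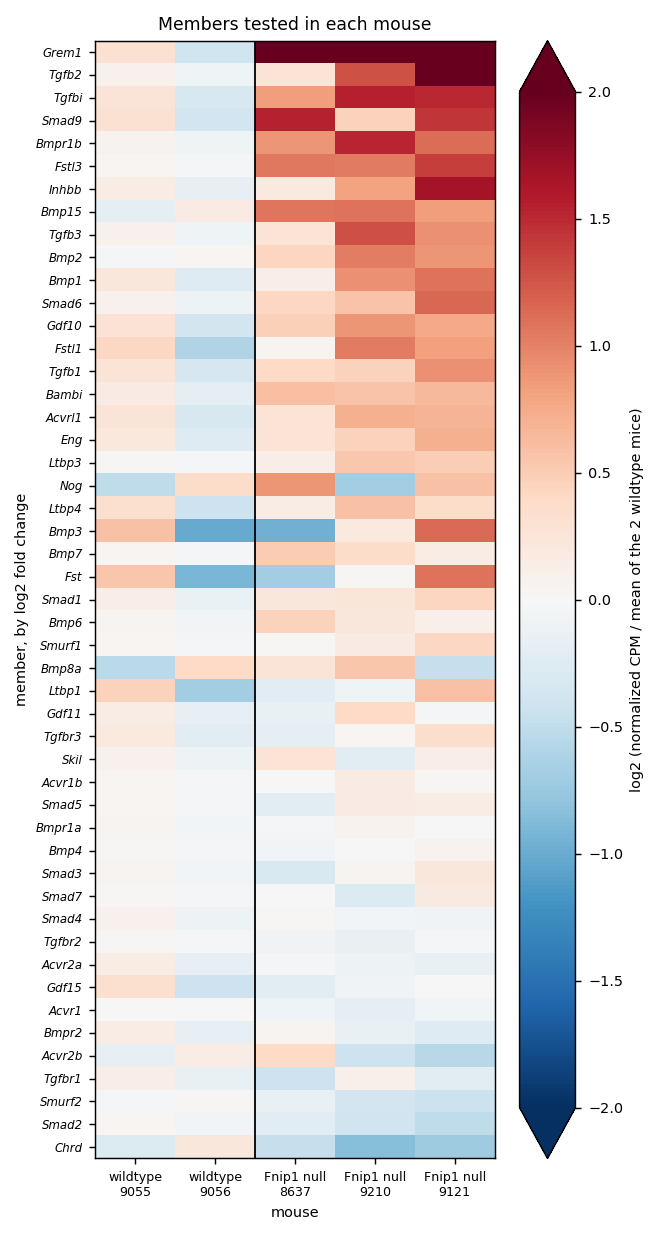
Log2 ratio of the normalized CPM in each mouse to the mean of the wildtype mice, for 49 of the 50 members tested, ordered by log2 fold change and with the colour scale ending at a 4-fold ratio. Red, above the wildtype mean, fills the upper rows of the 3 null mice and is paler in mouse 8637 for most of them. The bottom rows, *Smurf2*, *Smad2* and *Chrd*, are blue, below the wildtype mean, in the 3 null mice.

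Other genes of the pathway were read from the same test, as 7 lists of 99 genes in all. Of these, 81 were tested, 52 with a positive log2 fold change. By the quasi-likelihood test none passed both thresholds, and *Sostdc1*, a secreted BMP and Wnt antagonist of the distal nephron, passed the FDR alone. In that test 33 had an unadjusted p below 0.05, 29 of them higher and 4 lower in null tissue, where 13.9% and 11.2% of all genes were. *Sostdc1* measured 156, 175 and 187 normalized CPM in the null mice against 96.7 and 87.1 in wildtype, a log2 fold change of 0.91 (SE 0.116, adjusted p = 0.0395). By the exact test, 11 of the 81 passed both thresholds, all higher in null tissue, where 3.03% of all genes were, and 15 passed the FDR alone, against 9.77% of all genes.

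The 20 TGF-beta target genes were listed with earlier results of these data known, so their direction is no independent check. All 19 tested had a positive log2 fold change, with a median of 1.01 against 0.00312 for all genes. Every null mouse was above both wildtype mice in 13, where 22.9% of all genes were. None passed the quasi-likelihood test, with adjusted p-values from 0.0637 to 0.494. An unadjusted p below 0.05 was seen in 12, all higher in null tissue, where 13.9% of all genes were. In the exact test 8 passed the FDR, where 9.77% of all genes did: *Ctgf*, *Col1a1*, *Fn1*, *Acta2*, *Tagln*, *Cdkn1a*, *Lox* and *Loxl2*. *Fn1*, fibronectin, measured 43.6, 77.0 and 68.3 normalized CPM in the null mice against 33.6 and 17.7 in wildtype, a log2 fold change of 1.30 (SE 0.341). *Cdkn1a*, the cell cycle inhibitor p21, measured 13.4, 13.0 and 10.3 against 6.15 and 6, a log2 fold change of 1.01 (SE 0.176), with an adjusted p of 0.000766 in the exact test. *Col1a1*, *Lox* and *Loxl2*, a collagen and collagen cross-linking enzymes, had log2 fold changes of 1.25, 1.45 and 1.06. *Postn*, periostin, had the largest of the list, 1.74 (SE 0.722), with overlapping groups.

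The exact test without mouse 9210 called only *Nbl1* of the other pathway genes at both thresholds, against 8 genes without mouse 9121 and 21 without mouse 8637, where 1.85%, 3.33% and 8.69% of all genes were called. *Col1a1*, *Col1a2* and *Acta2* are also among the 11 markers of fibroblasts, pericytes and smooth muscle, which summed to 337, 558 and 480 normalized CPM in the null mice against 320 and 212 in wildtype. Of these markers, 10 had a positive log2 fold change and 8 lay above both wildtype mice in every null mouse, where 22.9% of all genes did. The part of such cells in the values of the target genes, *Tgfbi*, *Bmp1*, *Fstl1* and the latent binding proteins was not tested.

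Of 12 BMP target genes, 8 were tested, 6 with a positive log2 fold change. Their median over the 8 was 0.27, against 0.32 for the members. Every null mouse was above both wildtype mice in 2 and below both in 1, where 22.9% and 23% of all genes were, and the groups overlapped in 5. *Id1*, a direct BMP target, overlapped at 35.7, 19.7 and 30.8 normalized CPM in the null mice against 28.1 and 27.7 in wildtype, and the log2 fold change of *Id2* was -0.34 (SE 0.207) and that of *Id3* 0.30 (SE 0.177). *Id1*, *Id2* and *Id3* lie outside the rule for named genes and were chosen after their values were seen. *Hey1*, a target shared with Notch signalling, passed the exact test at low counts, at 1.77, 1.37 and 1.53 against 0.745 and 0.457 (log2 fold change 1.37, adjusted p = 0.0320 in that test). *Gata2*, a transcription factor of the collecting duct and endothelium, had a log2 fold change of 0.35.

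Among 12 other secreted antagonists, *Nbl1*, a BMP-binding protein of the gremlin family, measured 20.2, 30.4 and 26.9 normalized CPM in the null mice against 12.4 and 8.06 in wildtype, a log2 fold change of 1.34 (SE 0.252) with an adjusted p of 0.0688 in the quasi-likelihood and 0.000192 in the exact test. *Chrdl1*, a chordin-like protein, was lower, as was *Chrd*, at 6.54, 5.11 and 10.4 against 15.2 and 13.5, a log2 fold change of -0.96 (SE 0.293), with an adjusted p of 0.127 in the quasi-likelihood and 0.0361 in the exact test. In the list for activation of latent TGF-beta, 11 of 16 tested genes had a positive log2 fold change, and *Lrrc32*, which displays latent TGF-beta on the cell surface, *Mmp14*, a membrane protease, and *Fbn1*, fibrillin, passed the exact test with log2 fold changes of 1.01, 1.23 and 1.07. *Mmp2*, a gelatinase, had a log2 fold change of 1.10 with overlapping groups.

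The intracellular lists were flatter. Among 18 Smad partners and coregulators, 6 of 17 tested had a positive log2 fold change, and the largest were those of *Runx2* (1.35, SE 0.431) and *Runx3* (0.96, SE 0.378), neither past an FDR of 5%. In the TAK1 branch, the Smad-independent kinase arm, 7 of 8 genes had a negative log2 fold change, with a median of -0.17. *Map2k4*, a stress-kinase activator, measured 57.7, 58.9 and 53.5 normalized CPM in the null mice against 73.1 and 71.3 in wildtype (log2 fold change -0.35, adjusted p = 0.0965), and *Mapk14*, p38 alpha, overlapped, with a log2 fold change of -0.26. Of the 3 other ligand and co-receptor genes tested, *Rgma* and *Rgmb*, BMP co-receptors of the repulsive guidance family, had log2 fold changes of 0.59 and 0.31.

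Cell type markers moved between the genotypes as well. The 6 podocyte markers were all above both wildtype mice in every null mouse, where 22.9% of all genes were. Their sum was 688 to 802 normalized CPM in null and 383 to 386 in wildtype mice. The 8 collecting duct markers summed to between 1140 and 1653 in null and 870 and 911 in wildtype mice, and the 9 proximal tubule markers to between 8893 and 12833 in null and 14221 and 15475 in wildtype mice. Single proximal tubule markers went both ways: 5 lay below both wildtype mice in every null mouse, *Slc5a2* and *Slc5a12* lay above both, and *Cubn* and *Hnf4a* overlapped. Of all genes, 23% lay below both and 22.9% above. *Slc34a1*, at 3960 to 6341 normalized CPM, made up the largest part of the sum in every mouse. Of the 11 leukocyte markers 9 were tested and 8 of them had a positive log2 fold change, with a median of 1.42 over the 9. Every null mouse was above both wildtype mice in 6, where 22.9% of all genes were. The same 6 passed both thresholds in the exact test as higher, where 3.03% of all genes did. The sum of the 11 nevertheless overlapped, at 88.2 to 186 in null and 93.0 to 112 in wildtype mice. *Csf1r*, the receptor of a macrophage growth factor, made up 72.3 and 68.4 of the wildtype sums. It was the 1 tested marker with a negative log2 fold change. The sums of the 6 markers of the thick ascending limb and distal tubule also overlapped, at 7972 to 11538 and 7537 to 8408. *Umod*, at 5209 to 7912, made up the largest part of these sums in every mouse. Of the 6, *Slc12a3* and *Calb1* lay above both wildtype mice in every null mouse, where 22.9% of all genes did, and 4 overlapped. No list had a marker at 0 in all mice. The summed level of the 65 members was 1501 to 1669 in null and 1330 to 1557 in wildtype mice, so it overlapped. The part of these cell types in the values of single members, such as *Bmp7* in podocytes and tubules, was not tested.

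**Figure D5:**
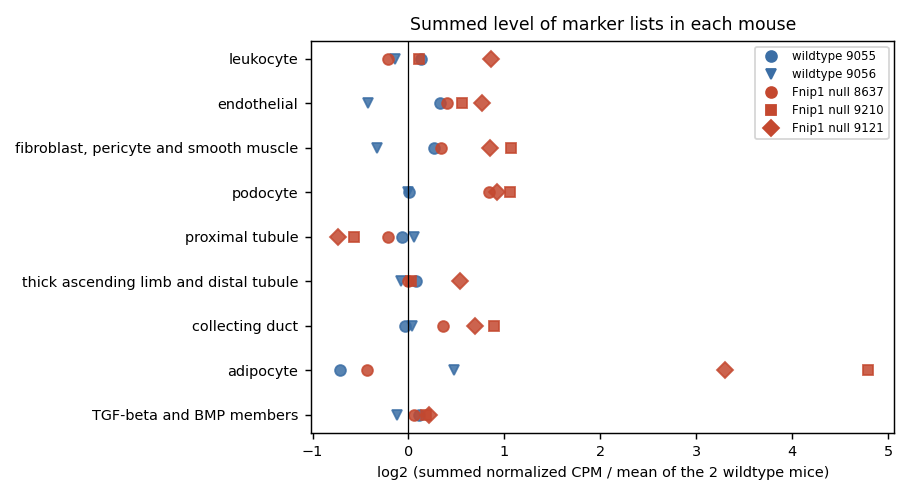
Log2 ratio of the summed normalized CPM of each marker list, and of all members, to the mean of the wildtype mice, for each mouse. The podocyte and collecting duct sums of the 3 null mice lie above both wildtype mice, the proximal tubule sums lie below, and the adipocyte sums of mice 9210 and 9121 lie far above the rest.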

How the data were processed

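RNA of flash-frozen kidney cortical tissue was sequenced as paired-end reads (TruSeq RNA libraries). The authors aligned the reads to mm10 with TopHat 2.1.0 and counted them with HTSeq 0.6.1, and the deposited values are whole-number counts per gene symbol, not normalized. The strand setting and the annotation are not given in the sources used here. HTSeq's rows for reads on no gene (9.91% to 10.8% of all rows' counts), on more than 1 gene (0.741% to 0.803%) and aligned to more than 1 place (28.3% to 31.4%) were left out.

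Members and lists were chosen with earlier results of these data known. Genotypes were compared in edgeR 4.0.16 under R 4.3.3: TMM normalization, a filter of at most 2 mice with fewer than 10 counts, quasi-likelihood test, Benjamini-Hochberg adjustment over all genes tested, FDR 5% and at least 2-fold. CPM values are TMM-normalized, errors are SD, and standard errors of log2 fold changes were derived from the test statistic. Mice were separate animals, 1 library each. The tests were also run on simulated counts with 200 changed genes. No single mouse was shifted in that simulation, so it does not bear on how the calls moved with a mouse left out.

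Named members were those past an FDR of 5% in the quasi-likelihood or exact test, up to 2 members per role with the largest change at a mean of at least 1 CPM, the member of each role highest per length, and the untested members in groups. Of the members tested, 1 entered the counts and medians and is not reported singly or plotted here. Other members were added for their roles after their values were seen. Other pathway genes were named when past that FDR or among the 2 largest changes of their list. Lengths and gene coordinates are from GENCODE M21 (GRCm38, the mm10 build), matched by symbol, and promoter sequences from RefSeq. Alternatives were the likelihood ratio test and exact test of edgeR, DESeq2 1.42.0, RLE factors, library size only, other filters, the FDR alone and leaving out each mouse. The exact test without each null mouse was added after seeing the data.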

Additional observations from a re-analysis of the deposited data

How the results depend on the processing

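The count of members called was 0 with RLE factors, with library size only, with at least 1 CPM in 3 mice and with the FDR alone. It was 4 with the exact test, 4 with the likelihood ratio test, 3 with DESeq2 and 2 with no filter, and ran from 0 to 8 with 1 mouse left out. In the same settings as the last 5, all genes gave 565, 628, 487, 145 and 0 to 901, against 74, and the other pathway genes 11, 12, 12, 1 and 0 to 14, against 0, with 1 under library size only and 1 under the FDR alone. All genes gave 137 without mouse 9121. The exact test without mouse 8637, 9210 or 9121, added after seeing the data, gave 8, 5 and 4 members, 21, 1 and 8 other pathway genes and 1206, 257 and 462 of all genes. The median of the members moved to 0.485 with library size only, and otherwise ran from 0.177 to 0.408. With a wildtype mouse left out, the remaining one is assumed to vary like the null group. The cause of these moves was not tested. No paired analysis was possible because the groups share no replicate number.

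With library size only, log2 fold changes turned positive in *Gdf15* (0.0688), *Tgfbr1* (0.00729), *Acvr1* (0.0552), *Tgfbr2* (0.0771), *Bmpr2* (0.0416), *Acvr2a* (0.0699), *Acvr2b* (0.0197), *Smad4* (0.128) and *Smad7* (0.140), all under the 0.166 shift of all genes. With no filter, *Bmp4* (-0.000582) and *Smad3* (-0.0069) turned negative. With 1 mouse left out, these log2 fold changes had both signs: *Bmp3* -0.261 to 1.37, *Bmp4* -0.021 to 0.0482, *Bmp8a* -0.221 to 0.711, *Gdf11* -0.0923 to 0.251, *Gdf15* -0.418 to 0.327, *Bmpr1a* -0.0286 to 0.0694, *Bmpr2* -0.255 to 0.0459, *Acvr2a* -0.233 to 0.0739, *Acvr2b* -0.48 to 0.0476, *Tgfbr3* -0.11 to 0.307, *Smad3* -0.115 to 0.146, *Smad5* -0.0182 to 0.16, *Smad4* -0.122 to 0.0655, *Smad7* -0.137 to 0.0863, *Ltbp1* -0.323 to 0.83, *Fst* -0.285 to 1.24 and *Skil* -0.0246 to 0.206. The other 30 members tested kept their direction in every one of these settings.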
